A study of Homo sapiens with 5 samples.

Results

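The albumin gene cluster and other carrier proteins of blood plasma were followed in HepG2 cells depleted of LSD2. The list named 9 genes, ALB, AFP, AFM, GC, TTR, RBP4, TF, AHSG and CP. They were chosen by function and position, and ALB also because earlier values of these arrays ran in opposite directions between siRNAs. A probe set was taken when the platform annotation gave 1 of these symbols as its only gene symbol. By this rule 7 of the 9 genes were measured, among 12893 genes in all, by 15 probe sets. AFM and GC were not analysed here. ALB and TF had 4 probe sets each, RBP4 and AHSG 2 each, and AFP, TTR and CP 1 each.

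HepG2 is a line from a human hepatic carcinoma that still makes many plasma proteins. LSD2, the product of KDM1B, removes methyl groups from lysine 4 of histone H3. Cells in DMEM with 25 mM glucose and 10% serum were transfected at about 50% confluence with siRNA and harvested after 3 to 4 days. The LSD2 group had 3 arrays, each with a different siRNA against LSD2, and the control group had 2 arrays with siRNA against GL3, a luciferase sequence. All groups were the same line in the same medium and received siRNA, and no untreated cells entered the comparison. The second control array is labelled a technical replicate of the first, so both were averaged to 1 control sample. The comparison asked which transcripts differed when LSD2 was depleted. Nothing in the labels says that the arrays came from separate cultures, so the spread between them may be partly technical.

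Values are on a log2 scale, with base 2 assumed, and every probe set had been centred on its median over the 5 arrays. They therefore give differences between arrays but no level, so levels cannot be compared between genes and the hepatic identity of the cells could not be read from marker levels. Precision was limited by how few arrays there were. The transcript of KDM1B stood at 16.5%, 30.2% and 38.4% of the control mean under siRNAs 1, 2 and 3. Bacterial poly-A transcripts, added to the RNA before labelling, put control array 1 with siRNAs 1 and 2, and control array 2 with siRNA 3. Over 24 probe sets their median difference from control array 1 was -1.45 for control array 2 and -1.39 for siRNA 3, against 0.04 and 0.07 for siRNAs 1 and 2. Differences are therefore also given against the control array of the same poly-A set. For KDM1B these were -2.99, -2.12 and -0.99 under siRNAs 1, 2 and 3, and its control arrays differed by -0.78. Across all genes, limma called 0 of 12893 (0%) at an adjusted p under 0.05, and 218 had an unadjusted p under 0.05. With the poly-A set as a block and both control arrays kept as separate samples, limma also called 0, with 498 at an unadjusted p under 0.05. KDM1B, the gene targeted, was itself not called, so a lack of calls does not show that genes were unchanged.

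Albumin binds fatty acids, bilirubin, hormones and drugs and sets much of the oncotic pressure of plasma. Alpha-fetoprotein (AFP) is its fetal counterpart, which is silenced after birth and made again by many hepatic tumours. Both belong to a family of cysteine-rich carriers with afamin (AFM) and the vitamin D binding protein (GC), and the liver secretes them with transthyretin (TTR), retinol-binding protein (RBP4), transferrin (TF), fetuin-A (AHSG) and ceruloplasmin (CP). In inflammation the liver makes less albumin, transthyretin, retinol-binding protein, transferrin and fetuin-A and more ceruloplasmin.

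ALB stood far below the control under siRNA 1 and far above it under siRNAs 2 and 3. All 4 of its probe sets placed the arrays in 1 order, with siRNA 1 lowest, then control array 1, control array 2, siRNA 3 and siRNA 2. The deposited values of probe set 1565228_s_at were -1.57 and 0.00 for control arrays 1 and 2, and -2.84, 3.01 and 2.84 under siRNAs 1, 2 and 3. Those of 214837_at were -1.08 and 0.00 in the controls and -4.38, 2.35 and 2.08 under the siRNAs. For 214842_s_at they were -0.81 and 0.00, then -1.74, 2.93 and 2.11. The narrowest spread was in 211298_s_at, at -0.56 and 0.00 in the controls and -1.11, 1.80 and 1.71 under the siRNAs. In no probe set did a knockdown array fall between the control arrays, but the siRNAs lay on both sides of them. In bulk RNA, fewer cells that express a gene and less of its RNA per cell cannot be told apart.

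The size of the ALB difference depended on the probe set more under siRNA 1 than under the others. Against the control mean it ran from -3.84 to -0.83 over the 4 probe sets under siRNA 1, from 2.08 to 3.80 under siRNA 2 and from 1.99 to 3.62 under siRNA 3. Averaged over probe sets, ALB was 4.04-fold lower under siRNA 1, 8.14-fold higher under siRNA 2 and 6.44-fold higher under siRNA 3. Its mean difference was 1.23 ± 2.82 (SD, n = 3 siRNAs), a mean smaller than the spread between siRNAs. Without siRNA 1 the mean was 2.86, without siRNA 2 it was 0.34 and without siRNA 3 it was 0.50. The control arrays differed by 1.0, and a gap at least as wide was found in 10.5% of all genes. Within the poly-A sets ALB stood at -1.51 and 3.53 under siRNAs 1 and 2 against control array 1, and at 2.19 under siRNA 3 against control array 2, so the directions were the same as against the control mean. Between siRNA 2 and siRNA 1, arrays of the same poly-A set, the difference was 5.04, or 32.9-fold. A difference of 1 or more downward under siRNA 1 and upward under siRNAs 2 and 3 was found in 29 genes (0.225% of all), and ALB, the gene noted for it, was the only one of the 7. As ALB was chosen for these values, no test is given for it.

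AFP, the next protein-coding gene after ALB on chromosome 4 in RefSeq, stayed near the control on every array. It read 0.07 and 0.00 in the controls and -0.35, -0.29 and 0.26 under siRNAs 1, 2 and 3. Under siRNAs 1 and 2 it lay below both control arrays and under siRNA 3 above both, all within 0.39 of the control mean. The mean difference was -0.16 ± 0.34 (SD, n = 3 siRNAs), and only the 1 probe set 204694_at bears on it. Over the 3 siRNAs AFP spanned 0.61, a span met or passed by 60.3% of all genes, against 5.04 for ALB, met or passed by 0.434%. Within the poly-A sets AFP stood at -0.42, -0.36 and 0.26. Whether a probe set of a strongly expressed gene was near saturation cannot be seen in values without levels.

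The other flanks of the cluster were ANKRD17, an ankyrin repeat protein gene just before ALB, and RASSF6, a Ras association domain gene just after AFM. ANKRD17 read 0.16 and -0.44 in the controls and 0.21, -0.06 and -0.22 under siRNAs 1, 2 and 3, so siRNAs 2 and 3 fell between the control arrays. RASSF6 read 0.83 and -0.11 in the controls and 0.00, 1.72 and -2.07 under the siRNAs, above both under siRNA 2 and below both under siRNA 3. Under siRNA 3, where ALB stood at 2.69, RASSF6 therefore stood at -2.43 from the control mean. Of 21 listed genes around the cluster and GC on the same chromosome arm, 10 were measured and limma called 0. None was higher under all 3 siRNAs, and 3 were lower under all 3, where 17.9% of all genes were higher and 18.2% lower. The lowest was the chemokine gene PF4V1, which read 2.96 and 2.42 in the controls and -1.62, 0.00 and -1.62 under siRNAs 1, 2 and 3. The equal values under siRNAs 1 and 3 were the lowest that PF4V1 had, which is read as a floor, so those 2 differences are bounds.

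Sequence ahead of the neighbours ALB and AFP is shown as background, and its part in their array values was not tested. Both stretches are the 150 bases before the transcription start in RefSeq on GRCh38.p14, plus strand, at chr4:73404137-73404286 for ALB and chr4:73436071-73436220 for AFP. Capitals mark the CCAAT box, a common promoter element, on either strand (CCAAT or ATTGG).
ALB: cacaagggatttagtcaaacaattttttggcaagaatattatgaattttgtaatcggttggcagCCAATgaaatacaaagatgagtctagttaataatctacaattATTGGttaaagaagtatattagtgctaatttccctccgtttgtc
AFP: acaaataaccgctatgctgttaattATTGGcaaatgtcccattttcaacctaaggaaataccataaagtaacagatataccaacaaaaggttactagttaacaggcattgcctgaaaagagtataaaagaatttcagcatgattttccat

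Of 35116 RefSeq promoter windows of this length, 23.5% held CCAAT on either strand. It lay at 86 and 44 bases before the start of ALB and at 125 bases before that of AFP. TATAAA, the only form of the TATA box searched, was sought on both strands and found in 6.71% of all windows. It lay 29 bases before the start of AFP, 30 bases before that of AFM and 31 bases before 1 of the starts of RBP4. The window of ALB did not hold these exact letters. No matches overlapped in ALB or AFP. ALB and AFP thus shared CCAAT but not the exact letters TATAAA. Other forms of the TATA box were not searched, so ALB cannot be said to lack one.

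**Figure D1:**
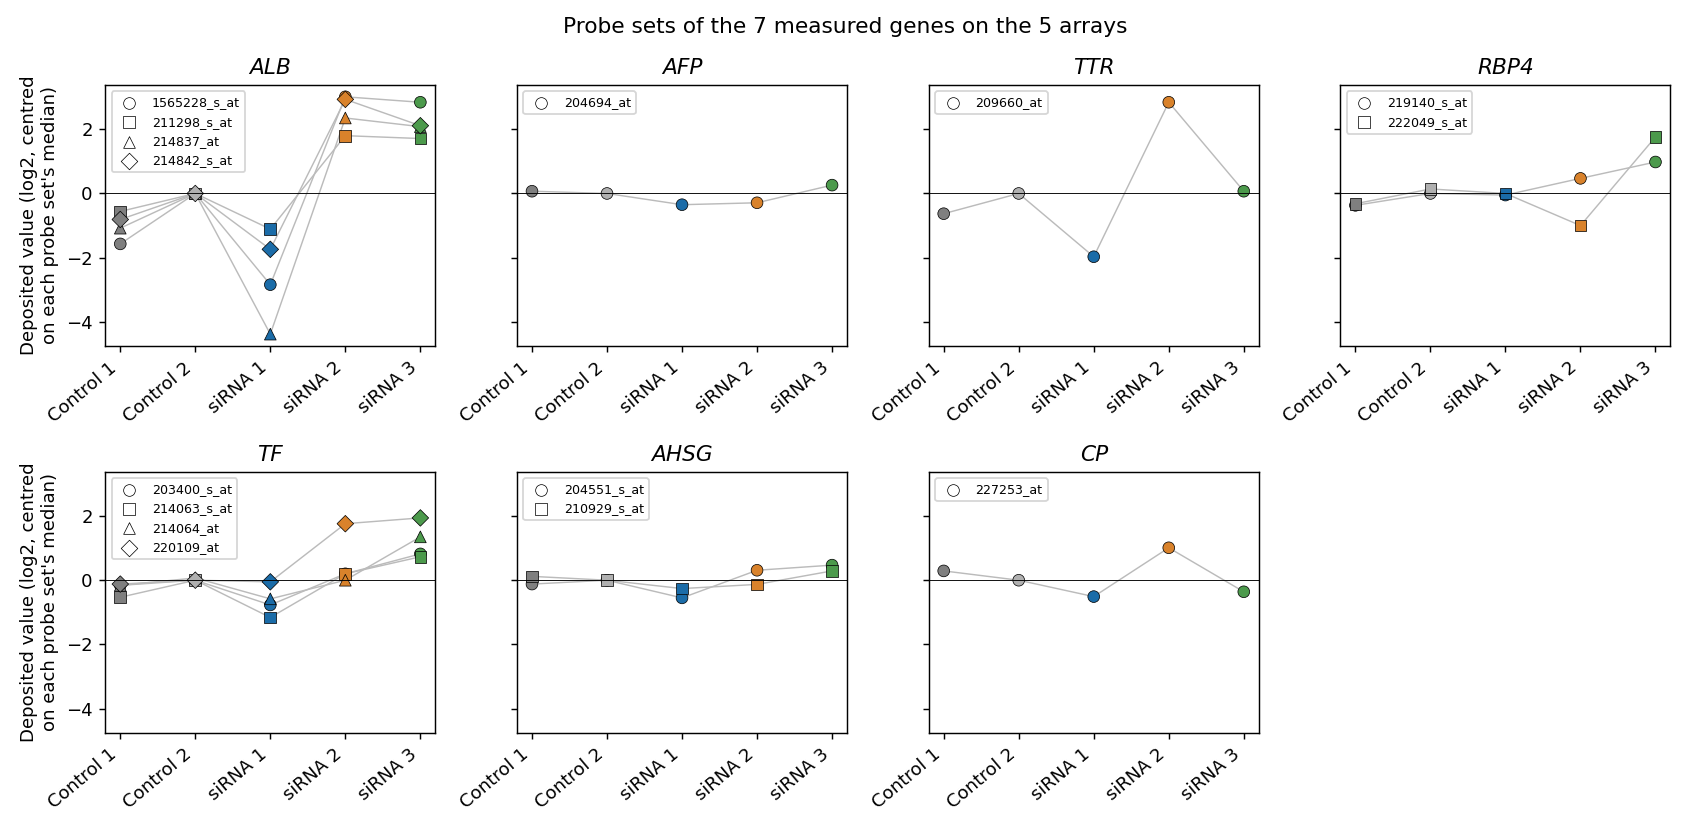
Deposited log2 values, centred on each probe set's median, of the 15 probe sets of the 7 measured genes on the 2 control arrays and the arrays of siRNAs 1, 2 and 3. Markers stand for probe sets, colours for arrays, and grey lines only join the values of a probe set. In ALB all 4 probe sets are lowest under siRNA 1 and highest under siRNA 2, while AFP stays between -0.35 and 0.26.

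TTR, which carries thyroxine and holds RBP4 in the circulation, was low under siRNA 1 and high under siRNA 2 as ALB was, but close to the control under siRNA 3. Its 1 probe set, 209660_at, read -0.63 and 0.00 in the controls and -1.97, 2.84 and 0.07 under siRNAs 1, 2 and 3. TTR was thus 3.15-fold lower under siRNA 1 and 8.93-fold higher under siRNA 2 than the control mean. Under siRNA 3 the difference was 0.39 from the control mean and 0.07 from control array 2 of its own poly-A set, less than the 0.63 between the control arrays. The mean difference was 0.63 ± 2.41 (SD, n = 3 siRNAs), and without siRNA 2 it was -0.63. With control array 1 as the only control, TTR differed by -1.34 for siRNA 1 and by 3.47 for siRNA 2. Between siRNAs 2 and 1 TTR differed by 4.81, or 28.1-fold, close to the gap in ALB.

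RBP4, the plasma carrier of retinol that circulates bound to transthyretin, stood outside the control arrays in the same direction in both probe sets under siRNA 3 only. Probe set 219140_s_at read -0.37 and 0.00 in the controls and -0.05, 0.47 and 0.98 under siRNAs 1, 2 and 3. Probe set 222049_s_at read -0.32 and 0.14, then 0.00, -1.0 and 1.76. Both were highest under siRNA 3, and siRNA 1 fell between the control arrays in both. Under siRNA 2 they disagreed in direction, at 0.66 and -0.91 from the control mean. Averaged over both, RBP4 stood at 0.11, -0.13 and 1.51 under siRNAs 1, 2 and 3, a mean of 0.50 ± 0.88 (SD, n = 3 siRNAs), or -0.01 without siRNA 3. Within the poly-A sets the values were 0.32, 0.08 and 1.30, so under siRNA 2 the direction turned. On the mean over probe sets RBP4 and TTR, partners in plasma, thus stood apart from the control under different siRNAs.

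On the mean of its probe sets TF, the carrier of iron, stood above both control arrays under siRNAs 2 and 3 and below both under siRNA 1. Probe set 203400_s_at read -0.16 and 0.00 in the controls and -0.77, 0.20 and 0.82 under siRNAs 1, 2 and 3. Probe set 214063_s_at read -0.53 and 0.00, then -1.16, 0.20 and 0.73. Probe set 214064_at read -0.16 and 0.07, then -0.58, 0.00 and 1.35. These 3 gave siRNA 1 the lowest and siRNA 3 the highest value. The fourth, 220109_at, read -0.12 and 0.00 in the controls and -0.05, 1.76 and 1.94 under the siRNAs, so siRNA 1 fell between the control arrays and siRNA 2 lay far higher than in the other probe sets. Averaged over the 4, TF was 1.44-fold lower under siRNA 1, 1.57-fold higher under siRNA 2 and 2.50-fold higher under siRNA 3. The mean difference was 0.48 ± 0.94 (SD, n = 3 siRNAs), or 0.06 without siRNA 3, and within the poly-A sets the values were -0.40, 0.78 and 1.19.

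AHSG, a plasma protein that binds calcium phosphate and hinders calcification, differed little. Probe set 204551_s_at read -0.12 and 0.00 in the controls and -0.55, 0.31 and 0.47 under siRNAs 1, 2 and 3. Probe set 210929_s_at read 0.12 and 0.00, then -0.26, -0.13 and 0.29. In both, siRNA 1 was below and siRNA 3 above both control arrays, and siRNA 2 lay above them in the first and below them in the second. The mean over probe sets and siRNAs was 0.02 ± 0.40 (SD, n = 3 siRNAs). Within the poly-A sets AHSG stood at -0.40, 0.09 and 0.38.

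CP, the ferroxidase that carries most of the copper in plasma, was the member that stood above the control under siRNA 2 alone. Its 1 probe set, 227253_at, read 0.29 and 0.00 in the controls and -0.51, 1.01 and -0.36 under siRNAs 1, 2 and 3. It was thus 1.82-fold higher than the control mean under siRNA 2 and 1.57-fold and 1.42-fold lower under siRNAs 1 and 3. The mean difference was -0.10 ± 0.84 (SD, n = 3 siRNAs), or -0.58 without siRNA 2, and within the poly-A sets CP stood at -0.80, 0.71 and -0.36.

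Counted together, the 7 genes differed by siRNA and no siRNA pattern took in all of them. Under siRNA 1, 6 of 7 lay below both control arrays, as did 40% of all genes, and RBP4 was the exception. Above both control arrays lay 5 of 7 under siRNA 2, against 38.1% of all genes, and 6 of 7 under siRNA 3, against 35.2%. None lay above both control arrays under all 3 siRNAs (8.63% of all genes) and none below both (10.1%). The order of ALB, below both control arrays under siRNA 1 and above both under siRNAs 2 and 3, was shared by TTR, TF and AHSG, so 4 of 7 had it, against 6.19% of all genes. In TF and AHSG it held for the mean over probe sets but not in every probe set. Margins were small in TTR, 0.07 above control array 2 under siRNA 3 with 0.63 between the control arrays. They were also small in AHSG, 0.09 above the control mean under siRNA 2. As these values come from the contrast that ALB was chosen on, nothing is read from the counts. A difference of 1 or more was reached by ALB and TTR downward under siRNA 1 (6.18% of all genes), by ALB and TTR upward under siRNA 2 (8.21%) and by ALB, RBP4 and TF upward under siRNA 3 (5.94%). The median over the 7 genes was -0.53 under siRNA 1, 0.65 under siRNA 2 and 0.39 under siRNA 3, against -0.04, 0.03 and 0.01 over all genes. Limma called 0 of the 7.

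**Figure D2:**
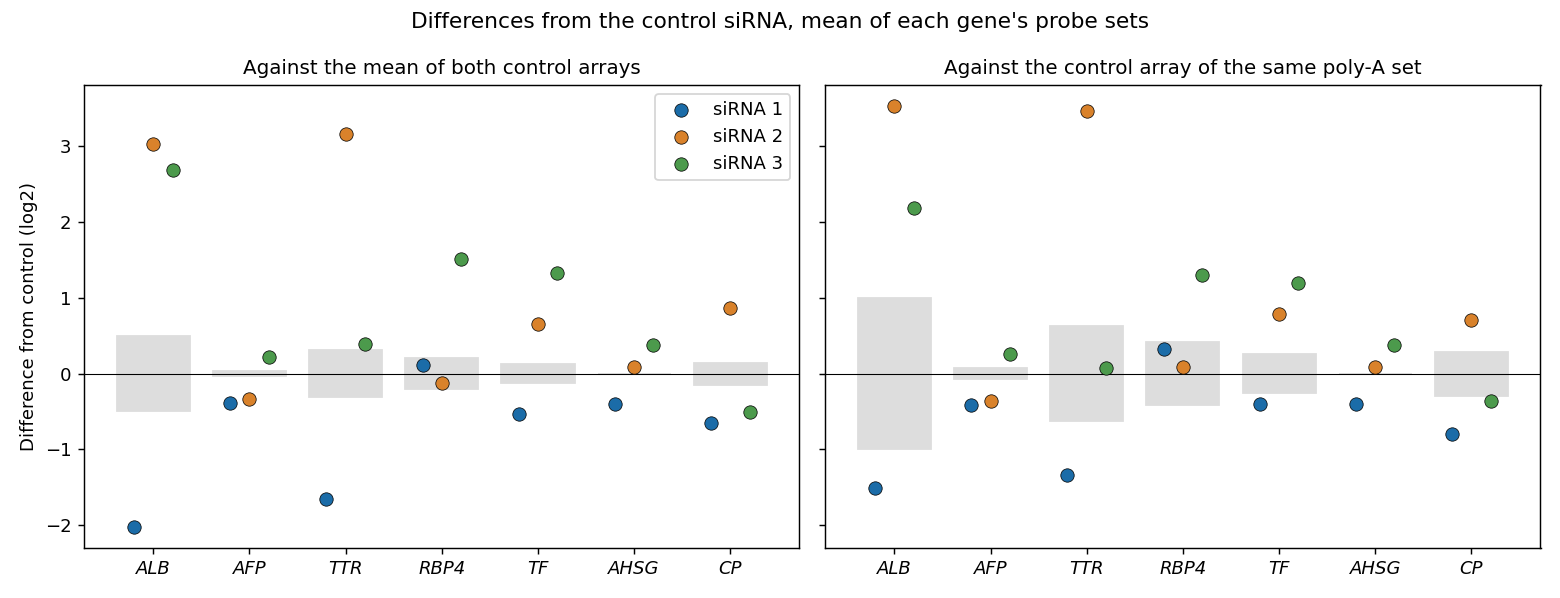
Differences from the control siRNA on the log2 scale for the 7 genes, each point 1 siRNA and the mean of the gene's probe sets. On the left the reference is the mean of both control arrays and the grey box spans from 1 control array to the other. On the right the reference is the control array of the same poly-A set and the grey box reaches 1 gap between the control arrays to each side. ALB lies at -2.02, 3.03 and 2.69 on the left and at -1.51, 3.53 and 2.19 on the right.

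Likeness to ALB was measured as the root mean square difference over the 5 arrays after each gene was centred on its mean. It reads the size of the differences as well as their order, and a gene equal on all arrays would stand at 1.91. The 5 nearest of 12892 genes were HSD17B2, a dehydrogenase gene that inactivates sex steroids (0.60), ANGPTL8, a hepatic inhibitor of lipoprotein lipase (0.60), the tight junction gene TJP3 (0.65), SERPINA7, which encodes the thyroxine-binding globulin of plasma (0.65), and the carboxypeptidase gene AGBL2 (0.67). Against the control mean HSD17B2 stood at -1.80, 2.03 and 1.46 under siRNAs 1, 2 and 3, and SERPINA7 at -0.56, 2.63 and 2.63. The median likeness over all genes was 1.93. Among the carriers TTR was nearest to ALB at 0.98, place 36 of 12892, and TF followed at 1.34, place 225. AHSG and CP at 1.70 each, RBP4 at 1.74 and AFP at 1.85 stood close to the value of a gene equal on all arrays, so their order says little about likeness to ALB.

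**Figure D3:**
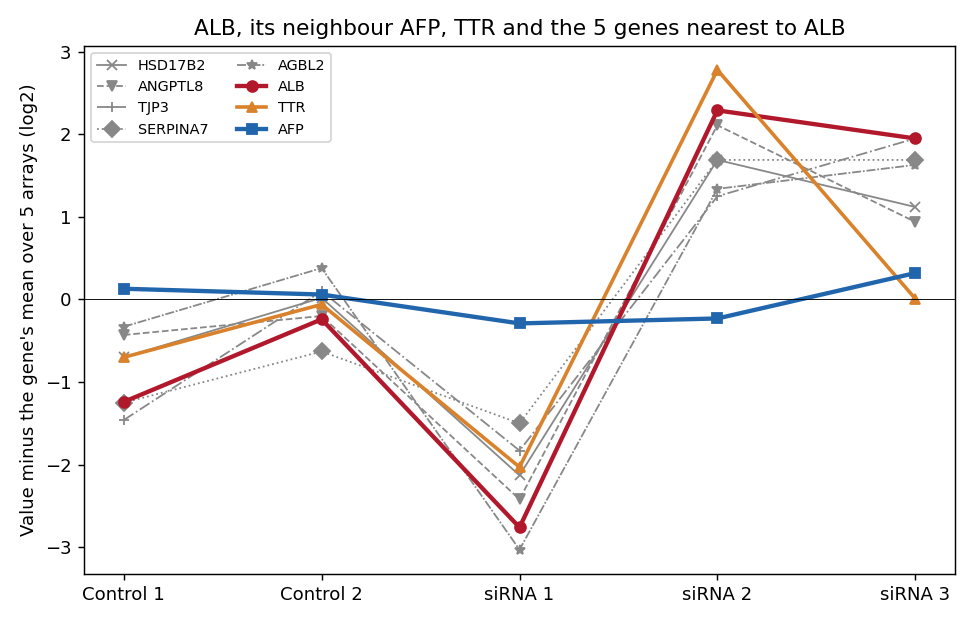
Log2 values on the 5 arrays, each gene centred on its own mean, for ALB, AFP, TTR and the 5 genes nearest to ALB. Lines join the arrays of a gene and have no time order. ALB spans from -2.76 under siRNA 1 to 2.29 under siRNA 2, and AFP lies between -0.29 and 0.32 on every array.

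Genes that act with these carriers were read from lists of known roles, and limma called 0 members of each. Over 20 measured plasma proteins of the liver outside the 7, the median was -0.29, 0.58 and 1.23 under siRNAs 1, 2 and 3, and 10 of them stood below the control mean under siRNA 1 and above it under siRNAs 2 and 3, as did 12.8% of all genes. Of the 20, 6 were higher under all 3 siRNAs (30% against 17.9% of all genes) and 0 lower (against 18.2%). The haem carrier gene HPX read -1.02 and -2.22 in the controls and 0.00, 0.54 and 1.12 under siRNAs 1, 2 and 3, above both controls each time. ITIH4, an inter-alpha inhibitor family gene, read -1.83 and 0.08 in the controls and 0.00, -0.28 and 1.17, so siRNAs 1 and 2 fell between them.

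The cystatin relatives that lie beside AHSG, FETUB, HRG and KNG1, spanned a wider range than AHSG itself. KNG1, the gene of the kinin precursor kininogen, read -0.26 and -0.19 in the controls and -0.89, 3.01 and 1.69 under siRNAs 1, 2 and 3, an order like that of ALB. HRG, which encodes a histidine-rich plasma protein, read -0.06 and -0.68, then 0.05, 1.37 and 0.00, above both control arrays under each siRNA. FETUB, the gene of fetuin-B, read 0.27 and -2.15 in the controls and -2.27, 0.11 and 0.87, and its control arrays differed by -2.42, so siRNA 2 fell between them. KNG1 and FETUB were named after their values were seen.

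Among 14 measured genes that handle retinoids and thyroid hormone, the ligands of RBP4 and TTR, 7 were higher under all 3 siRNAs (50% against 17.9% of all genes) and 0 lower (18.2% of all genes), and the median was 0.23, 0.50 and 0.46. DIO1, the deiodinase that makes active thyroid hormone in liver, read -0.78 and -0.45 in the controls and 0.00, 2.17 and 2.19 under siRNAs 1, 2 and 3. RBP2, a cellular retinol-binding protein gene of the intestine, read -0.43 and -1.11, then 0.00, 1.28 and 0.78. Both lay above both control arrays under each siRNA, unlike TTR and RBP4.

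Of 13 measured genes of iron handling, 4 were higher under all 3 siRNAs (30.8% against 17.9% of all genes) and 0 lower (18.2% of all genes), with medians of -0.20, -0.02 and 0.41. HJV, a co-receptor that raises hepcidin, read -0.07 and -0.56 in the controls and 0.68, 0.00 and 1.07. CYBRD1, a ferric reductase gene, read 0.00 and -0.81, then 0.05, 0.53 and -0.18, so siRNA 3 fell between its control arrays. In copper handling 5 of 10 were higher under all 3 (50% against 17.9%) and 0 lower (against 18.2%). ATP7B, the pump that loads copper onto ceruloplasmin, read -0.61 and -0.28 in the controls and 0.00, 0.32 and 0.67, above both under each siRNA, and its partner ATOX1, the copper chaperone, read -0.27 and -0.25, then 0.00, 0.35 and 0.21. CP did not share this order. Of 7 vitamin D genes, 3 were higher under all 3 (42.9% against 17.9%) and 0 lower (against 18.2%), among them the receptor gene VDR, at -0.54 and -0.56 in the controls and 0.00, 0.29 and 0.18, and the sterol hydroxylase gene CYP27A1, at -0.51 and -0.57, then 0.00, 0.31 and 0.56.

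Among transcription factor genes known to act on the albumin and AFP genes, 15 were measured, of which 4 were higher under all 3 siRNAs (26.7% against 17.9% of all genes) and 1 lower (6.67% against 18.2%). Their medians were 0.13, 0.11 and 0.29 under siRNAs 1, 2 and 3. Singly, 4 of the 15 stood below the control mean under siRNA 1 and above it under siRNAs 2 and 3 (26.7% against 12.8% of all genes). GATA4 read -0.12 and -0.27 in the controls and 0.14, -0.05 and 0.20, and FOXA1 read 0.11 and -0.40, then 0.00, 0.29 and 0.14, so siRNA 1 fell between its control arrays. The nuclear receptor gene NR2F1 read 0.27 and 0.00, then -0.85, 0.01 and -0.12, lower than the control mean each time, although siRNA 2 fell between the control arrays. The widest single values, named after they were seen, were -2.13 for DBP under siRNA 1, a circadian factor that stood at 0.39 and 0.49 under siRNAs 2 and 3, and 1.87 for ONECUT1 under siRNA 2. Over 7 genes of fetal liver and hepatoblasts the medians were -0.47, 0.68 and 0.18, and 4 of the 7 stood below the control mean under siRNA 1 and above it under siRNAs 2 and 3, as many as among the 7 carriers and against 12.8% of all genes. None was higher under all 3 siRNAs (17.9% of all genes) and 1 was lower (18.2%). This was SOX9, which read 0.37 and -0.01 in the controls and -0.35, -0.13 and 0.02, so siRNA 3 fell between its control arrays.

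Marker genes of other cell types gave no level, since values were centred. Medians under siRNAs 1, 2 and 3 were 1.20, 0.08 and -1.16 over 4 of 6 fibroblast markers and 0.32, -0.07 and -0.38 over 5 of 6 leukocyte markers. Of 5 endothelial markers only PECAM1 was measured, at -0.01, -1.07 and 0.10. Neither the fibroblast nor the leukocyte markers moved together, so their medians do not stand for each of them. Under siRNA 1 COL1A1, PDGFRB and DCN stood at 3.32, 1.30 and 1.10 from the control mean, but LUM at -2.07. Under siRNA 3 DCN stood at 1.51, and COL1A1, LUM and PDGFRB at -0.84, -1.48 and -2.27. Of the leukocyte markers CD14 stood at 1.03, 2.45 and 1.36 under siRNAs 1, 2 and 3, and CD3E at -0.42, -0.64 and -0.61. PTPRC, ITGAM and LYZ changed sign between siRNAs. The part of other cells in these values was not tested. Over 5 of 6 hepatocyte markers outside the 7 the medians were 0.06, 0.51 and 0.58, and 2 of the 5 stood below the control mean under siRNA 1 and above it under siRNAs 2 and 3.

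**Figure D4:**
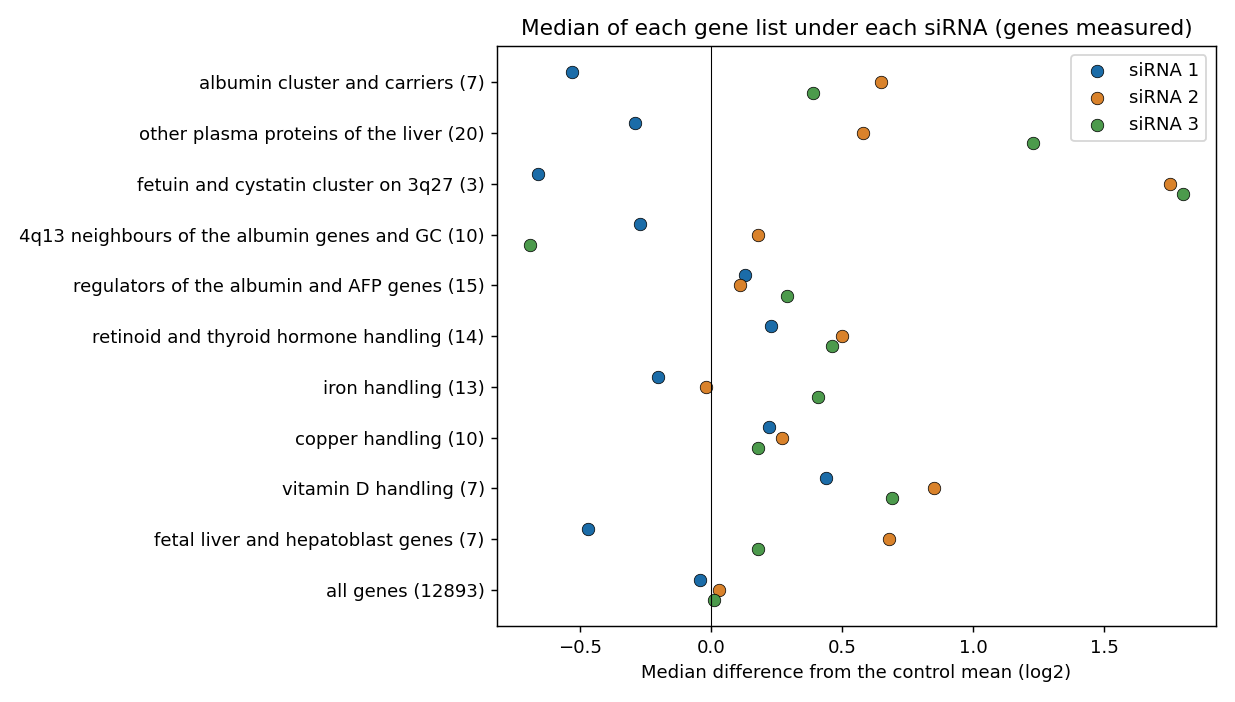
Median difference from the control mean on the log2 scale for each gene list under siRNAs 1, 2 and 3, with the number of genes measured in parentheses. The 7 carriers, the other plasma proteins, the fetuin and cystatin cluster and the fetal liver and hepatoblast genes lie below 0 under siRNA 1 and above 0 under siRNAs 2 and 3, while the medians over all genes lie between -0.04 and 0.03.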

How the data were processed

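Total RNA of 5 HepG2 samples was labelled by in vitro transcription from the 3′ end and hybridised to GeneChips, per the labels' protocols. Summary values were made by MAS5, per the submitters' processing notes. Log2 values as deposited ran from -7.05 to 7.47, and the median over the 5 arrays was exactly 0 in all 30137 probe sets. The log base, the scaling between arrays and the probe set filter are not given in the sources used here.

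Of the probe sets 24151 had 1 gene symbol, and a gene's value was the mean of its probe sets. The 3 siRNAs were compared with the averaged control in a two-sided fit with limma 3.58.1 (R 4.3.3), using Benjamini-Hochberg adjustment over 12893 genes, a threshold of 0.05, no trend and 2 residual degrees of freedom. The spread of the single control sample was taken to equal that of the knockdowns. The fit was tested on simulated data. The design allowed for linear values with a pseudocount, and none was needed.

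The members and gene lists were chosen with earlier results of these data known, and members are described without a test. Named genes were all members, KDM1B, ANKRD17, RASSF6, the 5 genes nearest to ALB and, per list, up to 2 genes higher and 1 lower under all 3 siRNAs by the weakest siRNA. KNG1, FETUB, DBP and ONECUT1 fall outside this rule and were named after their values were seen. All measured fibroblast, endothelial and leukocyte markers were also named then, with PECAM1 the only endothelial marker measured. Promoters came from RefSeq on GRCh38.p14, where 6 of the 9 genes had entries. Alternatives were quantile normalization, median centring, 1 probe set per gene by suffix, genes whose control arrays differed by under 0.5, separate arrays, blocks for the poly-A set and the replicate number, each poly-A set alone, and leaving out each array. Further software was pandas 2.3.3 and matplotlib 3.10.9.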

Additional observations from a re-analysis of the deposited data

How the results depend on the processing

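Limma called 0 genes under each of the 13 alternative fits, with 86 to 707 at an unadjusted p under 0.05. The median mean difference over the 7 genes, 0.48, stayed within 1 SD between siRNAs (0.62) under all 14 alternatives. It ran from -0.01 without siRNA 2 to 0.69 without siRNA 1 and was 0.02 with genes limited to a control gap under 0.5, a filter that removes ALB and TTR. The means of ALB and TF stayed above 0 throughout, at 0.34 to 2.86 and 0.06 to 1.19. The others changed sign under at least 1 alternative, with ranges of -0.63 to 1.77 for TTR, -0.01 to 1.30 for RBP4, -0.16 to 0.38 for AHSG, -0.58 to 0.18 for CP and -0.39 to 0.26 for AFP, and AFP at 0.26 in the second poly-A set alone was the only one to move by over 1 SD. Leaving out 1 of 3 siRNAs always moves a gene's mean by less than 1 SD over those siRNAs. Those alternatives could therefore not exceed the limit, and staying within it says nothing about stability there. Median centring is no check, since the array medians were already 0. Separate arrays without a block gave the same means as the main fit by construction. Of 72 list counts under alternatives, 69 stayed within 1.5 times, and the other 3 were counts of higher genes under the control gap filter. The 72 include those under median centring and main counts of 0, which a filter to fewer genes could not raise, so part of them could not change. The replicate numbers do not pair the samples: the control numbers mark technical replicates, and same-numbered arrays had deviations correlated at 0.10 and -0.05 over genes. With a replicate block limma called 0 genes and the median over the 7 genes was 0.06. Only siRNA 3 had number 3, so this block gives the same differences as leaving out siRNA 3. Levels and signal over background are not in the values, so dim or saturated probe sets could not be recognised.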
